A study of Mus musculus with 8 samples.

Results

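Cfd, Lep and Car3, 3 genes whose RNA is abundant in fat cells, were followed in the skin of near naked hairless mice. They were taken from the deposited table of log ratios by the RefSeq accession of each row, and each gene had 1 row. They are 3 of 6587 genes that could be named in the table and 3 of the 3779 that had enough values for a fit. The genes were chosen by name with their ratios between mutant and wild type skin on these same arrays known, so those ratios are given as a description, without a test.

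Cfd encodes complement factor D, also called adipsin, a serine protease that fat cells secrete and that cleaves factor B in the alternative pathway of complement. Lep encodes leptin, the hormone by which fat tissue reports its stores to the brain. Car3 encodes a cytosolic carbonic anhydrase that is abundant in fat cells and in slow skeletal muscle. The dermis of the mouse rests on a layer of white fat cells, which thickens and thins with the hair cycle, so whole skin holds RNA of fat cells beside that of hair follicles, epidermis, fibroblasts and muscle.

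The study compared the skin of 7 day old mutant pups with that of 7 day old wild type pups, to find genes that differ in the mutant. Near naked hairless is a mutation of the hairless locus that leaves a sparse coat. The sources used here do not give its allele state, the strain background or the sex of the pups, and the label names skin without its layers. RNA of both genotypes was hybridised together on each of 8 2-colour arrays, with the mutant RNA in Cy5 on arrays 2, 4, 6 and 7 and in Cy3 on arrays 1, 3, 5 and 8. By the design text, 5 biological replicates came from 1 litter, but no label says which pup is on which array. Some arrays therefore share an animal, and standard errors (SE) and p-values over arrays are too small. An SD below describes the spread between arrays, not between animals.

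A ratio below is log2 of mutant over wild type, so that 1 means a 2-fold higher signal in the mutant and -1 a 2-fold lower one. The base of 2 is assumed. The direction is likely but unstated, and rests on the first channel being called sample and on the mutant being named first. All columns were read as pointing the same way, already corrected for the dye swap. Replicate spots of Gapdh, which carry the same gene, bear on this reading. Where differences between these spots follow the dyes, turned columns would reverse them between orientations, and columns of Cy5 over Cy3 would not. The differences between spots ran against each other in 16 of 16 pairs of arrays of opposite dye orientation (median r = -0.45). They ran together in 12 of 12 pairs of the same orientation (median r = 0.55). Over all probes the picture was less clear, since the pairs of opposite orientation split into 6 above and 10 below 0 (median r = -0.02, from -0.52 to 0.31), against a median of 0.49 for the same orientation. Each array gave a value for between 41.3% and 88.3% of its rows, and the SD of its ratios lay between 0.57 and 1.60. The widest spreads were those of array 2 (1.60), array 3 (1.32) and array 8 (1.10).

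The start regions of Cfd and Lep are shown, and none was available for Car3. Both genes shown are known targets of the factors that drive fat cell differentiation. Each line gives the 250 bases before the annotated start, from RefSeq on GRCm38.p6, plus strand, at chr10:79890603-79890852 for Cfd and chr6:29059971-29060220 for Lep. Capitals mark matches, on either strand, to 5 motifs: C/EBP (TTNNGNAA), E-box (CANNTG), the core site of PPAR and RXR (AGGTCA), Sp1 (GGGCGG) and TATA (TATAA).
Cfd: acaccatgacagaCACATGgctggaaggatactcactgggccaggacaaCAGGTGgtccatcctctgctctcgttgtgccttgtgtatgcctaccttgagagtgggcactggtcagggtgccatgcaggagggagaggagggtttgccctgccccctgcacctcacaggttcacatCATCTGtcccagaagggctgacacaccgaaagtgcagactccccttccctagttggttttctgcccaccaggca
Lep: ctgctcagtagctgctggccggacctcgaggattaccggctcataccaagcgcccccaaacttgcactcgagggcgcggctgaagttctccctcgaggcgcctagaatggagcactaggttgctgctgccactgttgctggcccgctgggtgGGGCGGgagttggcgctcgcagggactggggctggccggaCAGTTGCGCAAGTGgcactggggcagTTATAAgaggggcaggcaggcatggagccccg
The Lep sequence held a C/EBP match, TTGCGCAA, starting 55 bases before the start, with an E-box overlapping each of its ends. It also held a TATA match 31 bases before the start, which overlaps its own match on the other strand 1 base upstream, and an Sp1 match 98 bases before it. The Cfd sequence held E-box matches starting 237, 201 and 74 bases before the start. Of 32851 such sequences, 36.8% held the C/EBP letters, 66.2% an E-box, 14% the PPAR and RXR letters, 32.7% the Sp1 letters and 22.8% the TATA letters. A match is a run of letters and was not tested as a site.

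Cfd had the highest ratios of the 3 genes on every array that measured it. Its log2 ratio was 2.84 on array 2, 1.99 on array 4, 1.32 on array 6 and 1.77 on array 7, the arrays with the mutant in Cy5. With the mutant in Cy3 it was 1.09 on array 3, 1.03 on array 5 and 3.68 on array 8, and array 1 had no value. All 7 values were above 0, with arrays 8 and 2 high, arrays 3 and 5 low, and the ranges of the orientations overlapping. The mean was 1.96 ± 0.98 (SD, n = 7), and the fit with a dye term gave 1.96 ± 0.33 (SE), a 3.89-fold higher signal in the mutant. The same-sign pattern is not rare in the table, as 2.86% of the 3779 genes tested were above 0 on every array with a value.

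Set against the other genes of the same array, Cfd stood near the top with 1 exception. Its ratio lay above those of 99.7% of the named genes on array 7, 99.5% on array 4, 98.8% on array 6, 98.7% on array 2, 98.1% on array 8 and 96.2% on array 5. On array 3 it lay above 76%. Array 8 gave the highest ratio of Cfd and still had 92 named genes above it, whereas on array 7 a ratio of 1.77 had 14 above it. Over all arrays, the fitted ratio of Cfd was the third highest of the 3779 genes.

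**Figure D1:**
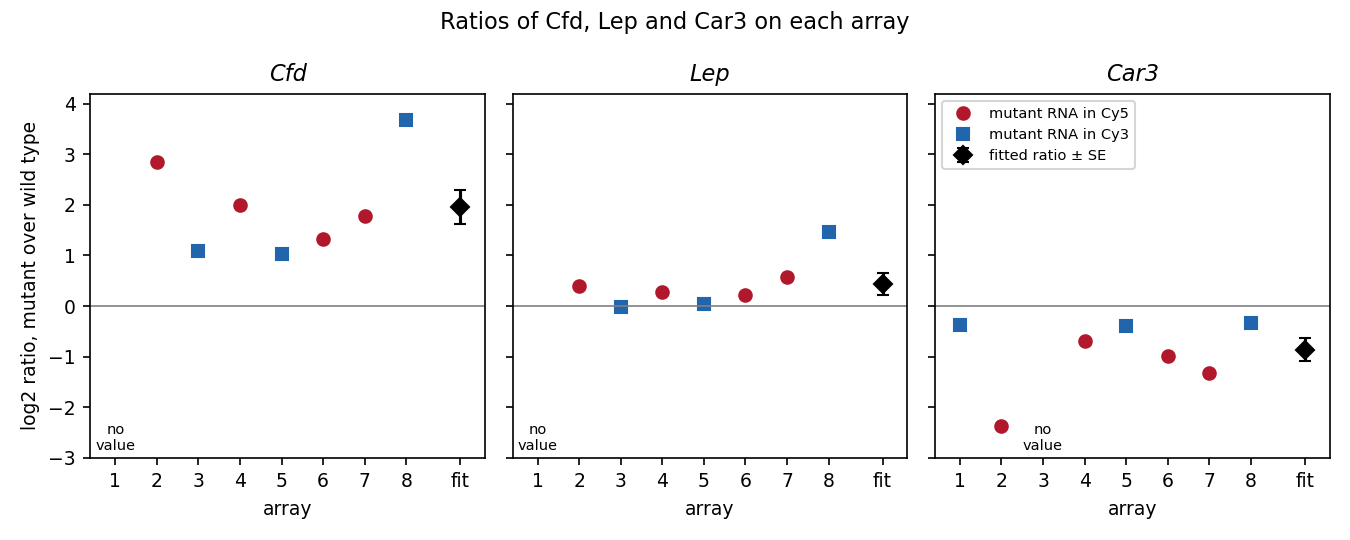
Log2 ratio of mutant over wild type (vertical axis) for Cfd, Lep and Car3 on arrays 1 to 8 (horizontal axis), with circles for mutant RNA in Cy5, squares for mutant RNA in Cy3 and a diamond for the fitted ratio with its SE. Cfd lies above 0 on 7 arrays and Car3 below 0 on 7, while Lep lies near 0 except on array 8, where it is 1.46.

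Lep stayed close to 0 on most arrays. Its log2 ratio was 0.40, 0.27, 0.21 and 0.57 on arrays 2, 4, 6 and 7, with the mutant in Cy5. It was -0.02 on array 3, 0.04 on array 5 and 1.46 on array 8, with the mutant in Cy3, and array 1 had no value. Array 8 stood apart from the other 6 values, and the orientations overlapped. The mean was 0.42 ± 0.50 (SD, n = 7) and the fitted ratio 0.43 ± 0.22 (SE). Without array 8 the fitted ratio was 0.19 ± 0.18. On its own array, Lep lay above between 47.7% (array 3) and 90% (array 8) of the named genes.

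Car3 was lower in the mutant on every array that measured it. Its log2 ratio was -2.37, -0.70, -0.99 and -1.33 on arrays 2, 4, 6 and 7, with the mutant in Cy5. With the mutant in Cy3 it was -0.37 on array 1, -0.39 on array 5 and -0.34 on array 8, and array 3 had no value. Array 2 was the lowest, and all 4 values with the mutant in Cy5 lay below all 3 with the mutant in Cy3. How many of all genes separate by orientation in this way was not counted. The mean was -0.93 ± 0.74 (SD, n = 7) and the fitted ratio -0.86 ± 0.23 (SE), a 1.81-fold lower signal in the mutant. Of the 3779 genes tested, 4.13% were below 0 on every array with a value. Car3 lay above 5.37% to 33.1% of the named genes of its array, so it was in the lower part of the table without being at its end.

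The effect of the dye orientation was tested, on the same ratios that were known when the genes were chosen. Each gene had 4 values with the mutant in Cy5 and 3 in Cy3, so its dye part is not fully separate from its mean ratio. The test is therefore not independent of the choice. The dye part is the size by which a ratio moves up when the mutant carries Cy5 and down when it carries Cy3. It was 0.02 ± 0.33 (SE) for Cfd, -0.07 ± 0.22 for Lep and -0.49 ± 0.23 for Car3, with adjusted p of 0.967, 0.862 and 0.165 (limma, over 3779 genes). None passed at 0.05, where 1.75% of genes did. For Car3 the mean was -1.35 ± 0.73 (SD, n = 4) with the mutant in Cy5 and -0.36 ± 0.02 (SD, n = 3) with the mutant in Cy3, so the size of its ratio differed between orientations while its sign did not. For Cfd these means were 1.98 ± 0.64 (n = 4) and 1.93 ± 1.51 (n = 3). For Lep they were 0.36 ± 0.16 (n = 4) and 0.49 ± 0.84 (n = 3).

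The genes did not share a ratio, although all 3 are markers of fat cells. On each of the 6 arrays that measured them all, Cfd was highest, Lep in the middle and Car3 lowest. The difference between Cfd and Lep on the same array lay between 0.99 and 2.45 on the log2 scale, with a mean of 1.54 ± 0.59 (SD, n = 7). That between Cfd and Car3 averaged 3.13 ± 1.34 (SD, n = 6), with its lowest value of 1.42 on array 5 and its highest of 5.21 on array 2. Lep exceeded Car3 by 1.51 ± 0.82 (SD, n = 6), from 0.43 to 2.77. These are differences of ratios and say nothing of which RNA was more abundant. In whole skin, fewer cells of a type and less RNA per cell cannot be told apart.

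The fitted ratios of Cfd, Lep and Car3 kept that order under each other way of processing that gave a value, but not always their size. Centring, scaling or quantile normalization of the arrays moved Cfd between 1.89 and 1.95, Lep between 0.39 and 0.43 and Car3 between -0.87 and -0.85. Without 1 array in turn Cfd ran from 1.52 (array 8) to 2.18 (array 5), Lep from 0.19 (array 8) to 0.56 (array 3), and Car3 from -0.96 (array 4) to -0.69 (array 2). Without arrays 2 and 8 together, chosen after seeing the data because they gave the highest Cfd ratios, they were 1.38, 0.18 and -0.69. The reading of the table itself moved them most. Had the columns held Cy5 over Cy3, the ratios would be 0.02 for Cfd, -0.07 for Lep and -0.49 for Car3, and none of the list genes named below would keep its call. Were all ratios wild type over mutant, every sign in the text would turn.

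**Figure D2:**
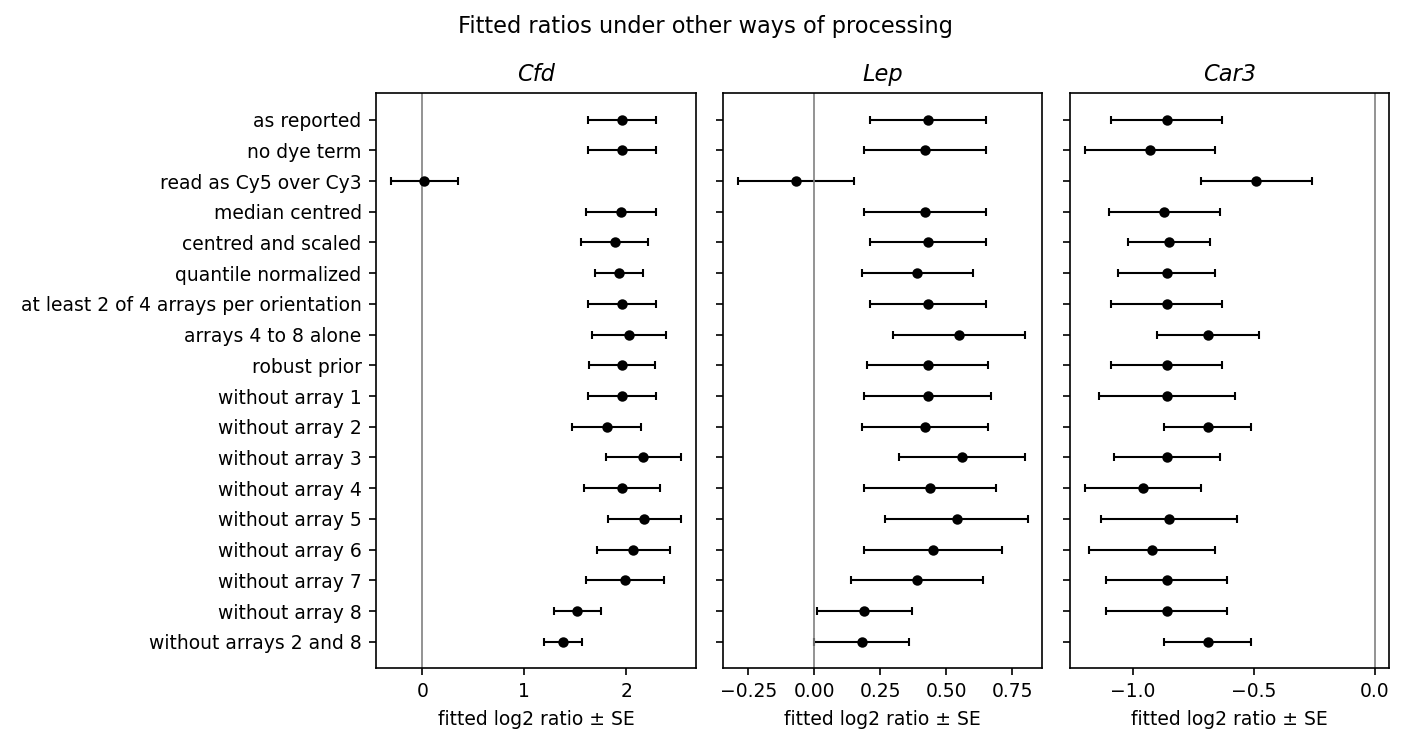
Fitted log2 ratio with its SE (horizontal axis, a different scale for each gene) for Cfd, Lep and Car3 under each way of processing (vertical axis). Cfd stays between 1.38 and 2.18 in all but the reading as Cy5 over Cy3, where it is 0.02, and Lep falls to 0.19 without array 8.

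Other genes of fat cells that had enough values for a fit did not pass the test in either direction. Of 13 markers of the fat cell, 9 had a row named here, the 3 genes above and 6 others. Adipoq, Fabp4, Plin1 and Cidec were not analysed here. Among the 6, the resistin gene Retn stood at 0.07 ± 0.17 (SE), Lpl, the lipase that takes up circulating fat, at 0.33 ± 0.40, Pparg, the master regulator of fat cells, at -0.11 ± 0.24, and Lipe, the hormone-sensitive lipase, at -0.20 ± 0.27. None of these 4 passed (limma, adjusted p between 0.683 and 0.845), against 3.47% of all 3779 genes (0.662% higher and 2.8% lower). The transcription factor gene Cebpa and the insulin-responsive glucose transporter gene Slc2a4 had too few values for a fit. Cebpa had 5 values, from -1.90 on array 4 to -0.00 on array 7. Slc2a4 had 2, at 0.07 on array 1 and 6.35 on array 8. The fitted ratio of Lpl averages values from -2.37 on array 2 to 2.72 on array 8. On array 2, where Cfd was at 2.84, 0 of the 3 other markers with a value were above 0 (median -1.56). On array 8, 4 of 6 were (median 0.21).

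Lists of genes by role gave the same count of 0 among the genes tested. A further 2, 6, 9 and 6 genes of the lists below, in order, had values but too few for a fit. Of 9 tested genes for secreted factors of fat cells, 4 had fitted ratios above 0 and 5 below, from Apoe, a carrier of lipids, at -0.34 to the haptoglobin gene Hp at 0.57 (median -0.03, against 0.05 for all genes). Of 9 tested regulators of fat cells, 4 were above 0 and 5 below, from Tcf7l2 at -0.22 to Id2 at 0.37 (median -0.11). Of 9 tested genes of fat uptake, synthesis and storage, 7 were above 0 and 2 below, from Thrsp, a factor of fat synthesis, at -0.32 to the desaturase gene Scd2 at 0.93 (median 0.20). Of 4 tested genes of fat breakdown, 1 was above 0, Acadl, a dehydrogenase of fatty acid oxidation, at 1.10, and G0s2, an inhibitor of fat breakdown, was lowest at -0.21 (median -0.12). None of these 31 passed in limma. At an unadjusted p under 0.05 there was 1 in the list of secreted factors, 1 in that of storage and 1 in that of breakdown, and 0 among regulators, so 3 of 31, against 19.5% of all genes tested.

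A minority of fat genes had high ratios on array 8. On it, 8 of 45 measured genes of the 4 fat lists had a log2 ratio over 2, or 17.8%, against 5.98% of all named genes of that array (300 of 5019). These 8, named after their values were seen, were Gpd1 at 7.03, Slc2a4 at 6.35, Scd2 at 5.98, Scd1 at 4.71, Acadl at 4.40, Lpl at 2.72, Abhd5 at 2.30 and Acsl1 at 2.18. Their roles in fat follow from the lists they were drawn from. On the other arrays between 0 and 2 genes of these lists passed 2. Several of the same 8 genes were low on array 2, which had the opposite dye orientation. There Lpl was at -2.37, Scd2 at -1.96, Acsl1 at -1.75 and Abhd5 at -0.57. Acadl was at 0.47, and Gpd1, Slc2a4 and Scd1 had no value. Of all named genes on array 2, 11.7% were lower by more than 2, against 16.7% of secreted factors, 22.2% of regulators and 0 of storage and breakdown. The median over all measured genes of these lists was 0.22 on array 8, against 0.23 on array 1, 0.50 on array 3 and from -0.21 to 0.10 on the remaining arrays.

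Cfd at 3.68 and Lep at 1.46 were each highest on array 8, and Car3 at -0.34 was nearest to 0 there. Of 16 skeletal muscle markers measured there 3 were over 2, while the median was 0.06. They were the enolase gene Eno3 at 7.64, the slow troponin gene Tnni1 at 6.55 and the fast light chain gene Mylpf at 2.78. Of 13 dermal fibroblast markers 5 were over 2, or 38.5%, with a median of 1.29, among them Pdgfra at 3.98 and Dcn at 3.32. The share over 2 was 20% for sebaceous gland markers and 0 for macrophage markers and for blood and vessel markers, against 5.98% of all named genes. On array 2, Eno3 was at -0.37, Tnni1 at -0.65, Mylpf at -2.36 and Dcn at -4.71, and Pdgfra had no value. There 26.7% of muscle markers and 11.1% of fibroblast markers were lower by more than 2, against 11.7% of all named genes. The part of these cell types, and of array 8, in the ratios of Cfd and Lep was not tested beyond the fits without array 8, where Cfd was 1.52 ± 0.23 (SE) and Lep 0.19 ± 0.18.

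**Figure D3:**
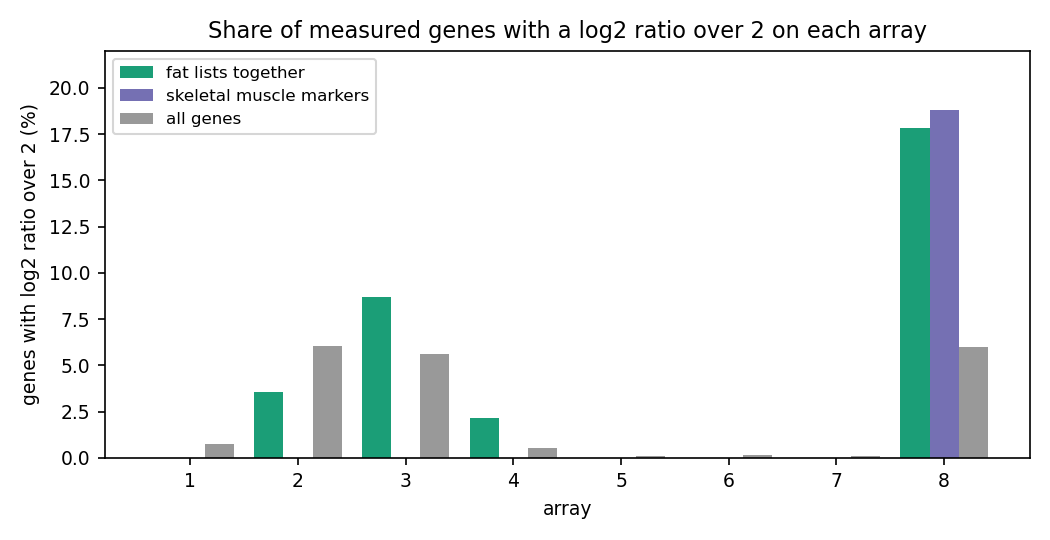
Percentage of measured genes with a log2 ratio over 2 (vertical axis) on arrays 1 to 8 (horizontal axis) for the 4 fat lists together, for skeletal muscle markers and for all named genes. On array 8 the bars reach 17.8% for fat genes and 18.8% for muscle markers, against 5.98% for all genes. Dermal fibroblast markers, at 38.5% on that array, and shares of low ratios are not drawn.

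Car3 is made in muscle as well as in fat, so the muscle list was read beside it. Of 9 tested muscle markers 3 had fitted ratios above 0 and 6 below, none passed (3 at an unadjusted p under 0.05, against 19.5% of all genes), and the median was -0.03. Eno3 was highest at 1.32 ± 0.63 (SE), with 7.64 on array 8 and at most 1.49 elsewhere. The fast troponin gene Tnnt3 was lowest at -1.23 ± 0.34 (adjusted p = 0.0721), below 0 on 7 of 8 arrays. The part of muscle RNA in the ratio of Car3 was not tested.

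Carbonic anhydrases interconvert carbon dioxide and bicarbonate, and in the list of those other than Car3, Car4 fell. Its log2 ratio was -1.08 ± 0.23 (SE, limma, adjusted p = 0.0247). Car4, anchored to the outer face of the cell membrane, was at -1.37, -0.72, -1.22 and -0.89 on arrays 2, 4, 6 and 7 and at -1.76, 0.15, -1.85 and -0.97 on arrays 1, 3, 5 and 8. Only array 3 was above 0, and the orientations overlapped. The secreted form Car6 stood at -0.96 ± 0.27 (adjusted p = 0.0825), below 0 on 5 of 6 arrays, and Car15 at 0.02 ± 0.18. These were the 3 tested of 8 with a value, so 1 of 3 was lower, against 2.8% of all genes. The call of Car4 was lost without array 1, 2, 4, 5, 6 or 7, with adjusted p from 0.0542 to 0.118, while its ratio stayed between -1.29 and -0.96. With arrays 4 to 8 alone the adjusted p was 0.0724. Car2, a cytosolic form like Car3, had 5 values from -0.75 to 0.34 and was not tested. Of 4 genes of bicarbonate and acid transport none passed (limma, 1 at an unadjusted p under 0.05, against 19.5% of all genes), with the anion exchanger gene Slc26a4 highest at 0.23.

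Among genes of the complement system other than Cfd, those that passed were lower. Cfd, whose product factor D acts in this system, was left out of the list. Of 14 tested genes 3 fell, none rose and 11 did not pass, against 2.8% lower among all genes, and the median was -0.24. Cfi encodes factor I, the protease that inactivates the product of the step that factor D starts. Its log2 ratio was -1.22, -1.64 and -2.65 on arrays 4, 6 and 7 and -0.08, -0.01, -0.39 and -0.70 on arrays 1, 3, 5 and 8. All 7 values were below 0, and those with the mutant in Cy5 lay below all with it in Cy3, a separation not counted over all genes. The fitted ratio was -1.07 ± 0.22 (SE, adjusted p = 0.0247), with a dye part of -0.77 (adjusted p = 0.068). Cr1l, a membrane regulator that limits the same step on cells, fell by 0.84 ± 0.19 on the log2 scale (adjusted p = 0.0342), with 7 of 8 arrays below 0.

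C1qb, a chain of the C1q molecule made by macrophages, fell by 1.37 ± 0.25 (adjusted p = 0.0141), with 7 of 7 arrays below 0. The genes of the other chains were not called, with C1qa at 0.39 and C1qc at -0.28. Cfb, the substrate of factor D, stood at 0.38 ± 0.25, the highest of the rest was the receptor gene C3ar1 at 0.64, and the lowest was the regulator gene Cd46 at -0.85, which was at -7.24 on array 2. Left out in turn, arrays 1, 5, 6 and 7 ended the call of Cfi (adjusted p up to 0.0807), arrays 1, 5 and 6 that of C1qb (up to 0.0807), and every array but 8 that of Cr1l (up to 0.149). With arrays 4 to 8 alone none of the 3 was called (0.0811 for C1qb, 0.0974 for Cfi and 0.261 for Cr1l). Without the dye term Cfi (0.18) and Cr1l (0.0612) lost the call, and under the looser filter Cr1l did (0.0506). Macrophages also make complement, and of 7 tested macrophage markers 4 had fitted ratios above 0 and 3 below. None passed (5 of 7 at an unadjusted p under 0.05, against 19.5% of all genes), with Tyrobp highest at 0.71 and Lyz2 lowest at -0.74. The part of macrophage RNA in these ratios was not tested.

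Along the leptin pathway, the call was Socs3, an inhibitor of cytokine receptors that leptin and other cytokines induce. Its log2 ratio was -1.11, -1.55, -1.91 and -1.48 on arrays 2, 4, 6 and 7 and -0.11, -1.16 and -1.70 on arrays 1, 5 and 8. All 7 values were below 0, array 1 was nearest to 0, and the orientations overlapped. The fitted ratio was -1.25 ± 0.23 (SE, limma, adjusted p = 0.0133). Leaving out array 5 (adjusted p = 0.0588) or array 6 (0.0511) ended the call, and over all 8 such fits the adjusted p ran from 0.0204 to 0.0588. The other 9 tested genes did not pass, from Pomc at -0.56 to Foxo1 at 0.31, so 1 of 10 was lower against 2.8% of all genes, with a median of -0.11. Lepr, the leptin receptor, had 5 values from -1.93 on array 4 to 0.27 on array 5 and was not tested. Jak2, the kinase bound to it, had 5 values from -0.20 to 0.68.

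**Figure D4:**
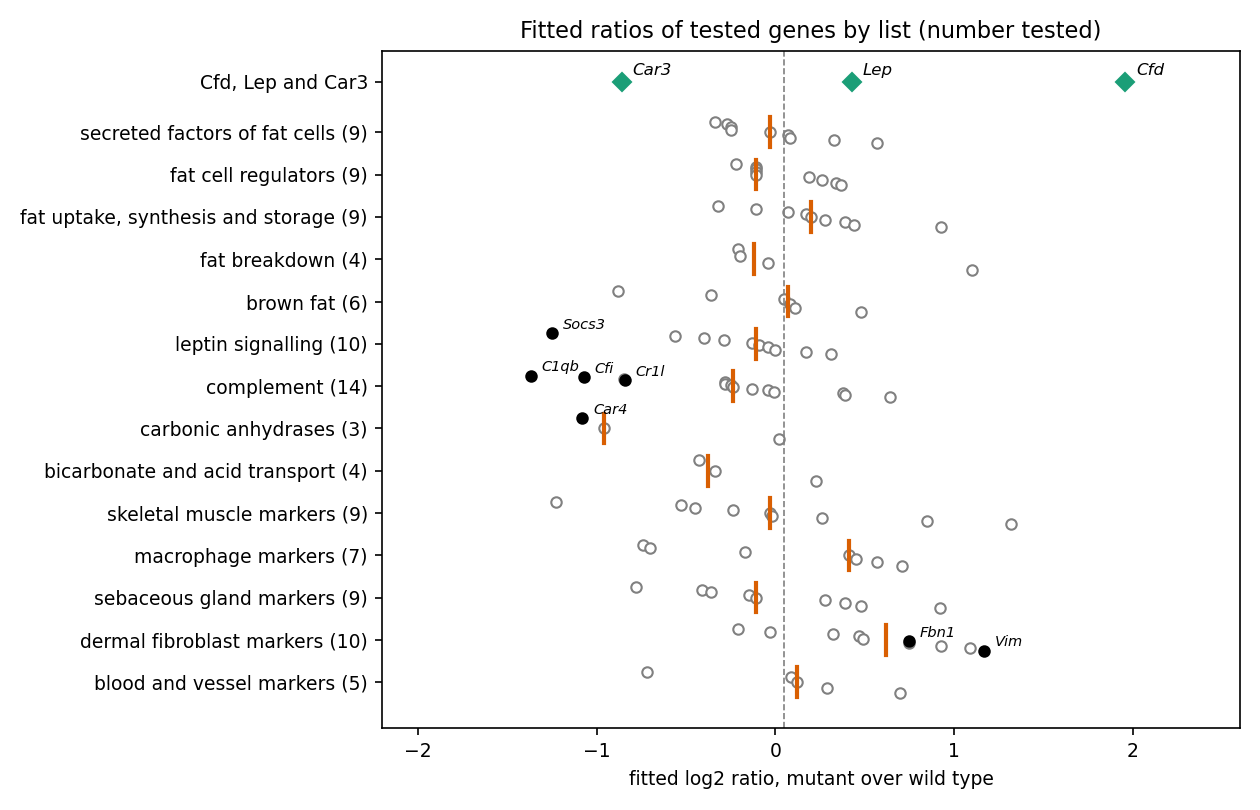
Fitted log2 ratio of mutant over wild type (horizontal axis) of each tested gene by list (vertical axis, number tested in brackets, with 1 gene of bicarbonate and acid transport not drawn), with filled circles for genes past an adjusted p of 0.05, open circles for the others, an orange bar for the median of the list and a dashed line for the median of all genes at 0.05. Diamonds in the top row are Car3 at -0.86, Lep at 0.43 and Cfd at 1.96. The filled circles are Socs3, C1qb, Cfi, Cr1l and Car4 on the lower side and Fbn1 and Vim on the higher side.

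The genes whose ratios ran closest to each of the 3 were found by the root mean square of the difference in log2 ratio, over the 7 arrays that measured the gene. Only genes with a value on all of those arrays were compared, and among the 1780 compared with Cfd none was close. The nearest were the cell cycle inhibitor gene Cdkn2b at 0.95, the adenylyl cyclase gene Adcy9 at 0.98 and the Hedgehog pathway factor Gli3 at 1.01. Cdkn2b, like Cfd, was highest on array 8 (3.12), and its mean was 1.05 ± 1.05 (SD, n = 7). The distance from Cfd to Lep was 1.64.

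Lep had nearer neighbours than Cfd. They were the glutathione synthetase gene Gss at 0.16, the cornified envelope gene Lor at 0.17 and the deubiquitinase gene Usp16 at 0.20. Each of these had its highest value on array 8, at 1.38, 1.40 and 1.67, as Lep did. The genes nearest to Car3, among 2184, included Zfp593 at 0.31 and the kinase gene Dapk3 at 0.34. Both were lowest on array 2, at -2.37 and -2.89, where Car3 was at -2.37, and each was above 0 on 1 of the 7 arrays.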

How the data were processed

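The values that the authors deposited are log ratios of both channels, read here as log2, with medians between -0.13 and 0.13 by array and unequal spread. The sources used here do not state the image analysis, the normalization, the logarithm base, the direction or the rule for missing values. Spot intensities were not used. Each SE treats the arrays as independent, although some share an animal. Of 23232 rows, 864 blank, 275 buffer and 96 control oligonucleotide spots were left out, and 6749 rows were named by RefSeq accession and 77 by synonym through a gene table of GRCm38.p6. Probes of a gene, and the 232 Gapdh spots, were averaged. Genes with values on at least 3 of 4 arrays of each orientation (2 of 3 where an array was left out) entered a linear model of the ratio with a term for the dye orientation (limma 3.58.1, R 4.3.3). Statistics were moderated by eBayes, and p-values were adjusted by Benjamini-Hochberg over all genes, with 0.05 as the threshold. The fit was run on simulated data with independent errors. These did not model shared animals or the unequal spread of the arrays, so the run cannot speak to those points.

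Cfd, Lep and Car3 and the 14 gene lists were chosen with earlier results of these data known. In each list the genes past the threshold and the highest and lowest of the others were named, and for each of the 3 genes the 3 nearest genes. Of the genes so taken, 2 are not reported here. The alternatives were no dye term, the reading as Cy5 over Cy3, median centring, scaling, quantile normalization, looser and stricter filters, a robust prior, arrays 4 to 8 alone, each array left out and, for the 3 genes, the median over arrays.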

Additional observations from a re-analysis of the deposited data

Results flagged for a closer look

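Dixon's test was applied to 45 named genes and singled out 1 array for 9 of them. Chance alone does so for about 1 in 20 sets of values, a rate that does not apply here, since many of these genes were named for extreme ratios or for their likeness to Lep or Car3 on these arrays. The array was 8 for 6 genes and 2 for 2. The test was not applied to all genes, so no share over all genes stands beside these counts. Of all named genes, 5.98% had a log2 ratio over 2 on array 8 and 6.06% on array 2. On arrays 5, 6 and 7 between 0.0997% and 0.13% did. Lep was at 1.46 on array 8, where its other 6 values lay between -0.02 and 0.57. On the same array Eno3 was at 7.64, Scd2 at 5.98, Acadl at 4.40, Pdgfra at 3.98 and Lor at 1.40. On array 2, Cd46 was at -7.24 and Pecam1 at -1.93, each far below its other values. Usp16 was at -3.60 on array 1, which had no value for Lep and so did not enter their comparison. Cfd and Car3 had no such array.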

How the results depend on the processing

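The fitted ratios of Cfd, Lep and Car3 kept their sign and moved by less than 1 SD between arrays under every alternative that gave a value, except that read as Cy5 over Cy3 Cfd was 0.02 and Lep turned to -0.07. With values required on all 8 arrays none of the 3 was fitted. Their dye parts passed under none. The 25 higher and 106 lower genes became 5 and 59 without the dye term, 62 and 4 read as Cy5 over Cy3, 43 and 163 after scaling, 128 and 222 after quantile normalization, and 3 and 12 with arrays 4 to 8 alone. The looser filter gave 12 higher and the stricter one 55 lower. Without 1 array, 3 to 18 were higher and 25 to 115 lower. Of the list genes, 2 were higher (Fbn1 and Vim) and 5 lower. These counts became 0 and 3 without the dye term, 1 and 0 read as Cy5 over Cy3, 5 and 10 after quantile normalization, and 0 and 1 with arrays 4 to 8. After median centring, under the looser filter and without arrays 2 and 8, 1 was higher, 9 were lower after scaling and 3 under the stricter filter. Without 1 array, 1 was higher and 0 to 5 lower. Read as Cy5 over Cy3, Car4 turned to 0.03 and Vim to -0.71. The causes were not tested. Each ratio sets both genotypes against each other on 1 array. A block by animal could not be fitted, since no label ties an array to an animal.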

Other observations

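Other cell types that share the fat layer or use its lipids were also measured. In brown fat, none of 6 tested genes passed (limma, 2 at an unadjusted p under 0.05, where 19.5% of all genes were). The uncoupling protein gene Ucp1 stood at 0.08 ± 0.19 (SE), and the range ran from Cox7a1 at -0.88 to the elongase gene Elovl3 at 0.48. Of 9 tested sebaceous gland markers none passed (4 at an unadjusted p under 0.05, against the same 19.5%), from the desaturase gene Scd3 at -0.78 to Prdm1 at 0.92, with a median of -0.11. Of 5 blood and vessel markers none passed (2 at an unadjusted p under 0.05, against 19.5%), from the endothelial adhesion gene Pecam1 at -0.72, below 0 on 7 of 7 arrays, to the endothelial cadherin gene Cdh5 at 0.70.

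The dermal fibroblast markers had 8 of 10 tested genes above 0 and a median of 0.62, against 0.05 for all genes. Vim, an intermediate filament of mesenchymal cells, rose to 1.17 ± 0.19 (SE, limma, adjusted p = 0.00889), above 0 on 8 of 8 arrays, and the fibrillin gene Fbn1 to 0.75 ± 0.19 (adjusted p = 0.0496), above 0 on 6 of 8. So 2 of 10 were higher, against 0.662% of all genes. The ratio of Vim lay between 0.21 and 0.90 with the mutant in Cy5 and between 1.40 and 2.37 with it in Cy3. Such a separation was not counted over all genes. Its dye part was -0.71 (limma, adjusted p = 0.0609), and that of Fbn1 was 0.64 (adjusted p = 0.068). Fbn1 lost its call in each of the 8 fits without 1 array (adjusted p from 0.0683 to 0.158), and Vim kept it in all 8 but not without the dye term (0.0554) or with arrays 4 to 8 alone (0.0822). Pdgfra, the receptor that marks fibroblasts and precursors of fat cells, stood at 1.09 ± 0.45 without passing, and Lum was lowest at -0.21.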
